A study of Homo sapiens with 39 samples.

Results

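The comparison described here sets HCT116 cells that produce isoform 5 of hepatocyte nuclear factor 4 alpha (HNF4A) against HCT116 cells that produce isoform 2. It uses 6 of the 39 RNA-seq libraries of the series, 3 per line, chosen by the isoform named in their labels. HCT116 is a human colorectal cancer cell line. Each line is 1 stable Flp-In T-REx line with a single insertion of an HNF4A isoform that carries GFP at its C-terminal end, so an effect of the isoform and an effect of deriving that line cannot be told apart. Doxycycline at 2.5 µg/ml switched the insert on for 48 h, and no group produced GFP alone. Both lines had been grown in blasticidin at 5 µg/ml and hygromycin B at 100 µg/ml, which were withdrawn at induction. The parental host cells, 3 libraries used as a reference level, carry no insert, received the same doxycycline and had been grown in blasticidin at 5 µg/ml and zeocin at 100 µg/ml. The lines of isoforms 4 and 1 and of isoforms 6 and 3, 3 libraries each, were made and induced the same way. The labels do not say that libraries of a line came from separate cultures, so p-values measure only the spread between these libraries.

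HNF4A is a nuclear receptor that binds DNA as a homodimer and drives genes of hepatocytes and of the intestinal epithelium, among them genes of lipid transport and of the brush border. Its isoforms differ in the N-terminal A/B region, which holds an activation function, and in the C-terminal F domain. By the standard nomenclature isoforms 2 and 5 both carry the short insertion in the F domain, and isoform 5 has in addition the sequence of exon 1B in its A/B region. Isoforms 4 and 1 differ by exon 1B without the F-domain insertion, and isoforms 6 and 3 differ by exon 1B with a shortened C-terminus. The labels give the isoform numbers and not these structures.

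Abundance is given as TPM (transcript abundance scaled for transcript length and to the same total in every library). Differences are in log2(TPM + 1), isoform 5 minus isoform 2, which understates the change of rows at low TPM. A row was called at a limma Benjamini-Hochberg adjusted p under 0.05 and an absolute difference of at least 1. Rows averaging 1 TPM or more across the series were tested, 15002 of 45434.

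HNF4A mRNA was high in both lines. Summed over its 12 rows it was at 868, 882 and 807 TPM in the isoform 5 line, at 577, 655 and 609 TPM in the isoform 2 line and at 31.9, 30.8 and 31.7 TPM in parental cells. The isoform 5 line was thus above the isoform 2 line in every library, at 852 ± 39.8 TPM against 614 ± 39.2 TPM (SD, n = 3), and the part of this gap in the differences below was not tested.

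The row of HNF4A that holds the signal bears on the label. The names HNF4A4 and HNF4A5 stand in exchanged rows in the tables of the isoform 4 and isoform 5 lines. By its own table the isoform 5 line has its 851 TPM in the row named HNF4A5, and by the row order of the other 11 tables that row is HNF4A4. The small values in other HNF4A rows differed between these lines: the line labelled isoform 5 had 0, 0.0775 and 0.0817 TPM in the HNF4A2 row and at most 3.09e-06 TPM in the HNF4A1 row. The line labelled isoform 4 had 0.087, 0.0747 and 0 TPM in the HNF4A1 row and at most 7.18e-05 TPM in the HNF4A2 row. By the nomenclature isoform 2 shares its C-terminal form with isoform 5, and isoform 1 with isoform 4. The labels are used as given, and values for the line labelled isoform 4 in place of isoform 5 are printed where they change a call.

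Of the 15002 tested rows, 604 were called (4.03%), 301 higher in the isoform 5 line (2.01%) and 303 lower (2.02%). The lower calls reached further: 74 of them lay at 2 log2 units or beyond and 31 at 3 or beyond, against 23 and 6 of the higher calls. Their median absolute difference was 1.41, against 1.25 for the higher calls. The libraries of the 2 lines did not overlap in 601 of the 604 called rows, and the other 3 were short nuclear or nucleolar RNA rows. The thresholds of the call select for such a separation, so this count is no further support. The share without overlap over all tested rows was not computed. At an adjusted p under 0.05 with no minimum fold, 8086 rows passed, and the median over all tested rows was 0.098.

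The rows called lower by the most were led by genes that were high in the isoform 2 line and at or near the parental level in the isoform 5 line. ACSL5 encodes an acyl-CoA synthetase that activates long-chain fatty acids. It was at 81.4, 81.3 and 80.9 TPM in the isoform 2 line, at 0.588, 0.621 and 0.363 TPM in the isoform 5 line and at 0.526, 0.64 and 0.485 TPM in parental cells. The isoform 5 and parental libraries overlapped, and the isoform 2 libraries were 155-fold above isoform 5 on mean TPM (difference -5.76 ± 0.11, SE; limma adjusted p = 2.03e-26). CIDEC, a lipid droplet protein of fat-storing cells, had 62.3, 62 and 58.2 TPM in the isoform 2 line and 0.854, 0.919 and 0.483 TPM in the isoform 5 line. Its parental libraries lay lower still, at 0.0344 to 0.125 TPM (difference -5.15 ± 0.129). CIDEB, a related protein that acts in lipoprotein lipidation, had 40, 49.1 and 45.1 TPM in the isoform 2 line, 2.57, 2.21 and 2.3 TPM in the isoform 5 line and 2.42, 2.2 and 2.22 TPM in parental cells (difference -3.76 ± 0.178).

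IL32 encodes a secreted pro-inflammatory cytokine. Its libraries stood at 90.6, 78.5 and 87.8 TPM with isoform 2, at 1.39, 0.727 and 0.835 TPM with isoform 5 and at 0.446, 0.524 and 0.304 TPM in parental cells (difference -5.46 ± 0.154). CREB3L3, a membrane-bound transcription factor of liver and gut that controls triglyceride metabolism, had 36.8, 41.7 and 32 TPM with isoform 2 and 0.419, 0.527 and 0.304 TPM with isoform 5 (difference -4.73 ± 0.158). Its parental libraries were at 0.251, 0.182 and 0.198 TPM, below every isoform 5 library. VIL1, the actin-bundling villin of the brush border, had 30.7, 32.5 and 36.6 TPM with isoform 2 against 0.961, 0.722 and 0.813 TPM with isoform 5 (difference -4.22 ± 0.165). The uncharacterised gene C11orf86 had 94.9, 97.1 and 88.4 TPM with isoform 2 and 2.24, 1.88 and 1.47 TPM with isoform 5 (difference -5.05 ± 0.143), above its parental range of 0.139 to 0.3 TPM.

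APOBEC1 is the cytidine deaminase that edits apolipoprotein B mRNA in the small intestine. Its libraries were at 28.4, 31.1 and 29.5 TPM with isoform 2 and at 0.239, 0.367 and 0.0544 TPM with isoform 5, and it was listed at 0, 0.121 and 0 TPM in parental cells (difference -4.66 ± 0.187). SDCBP2, a PDZ-domain protein also called syntenin-2, had 19.8, 19.8 and 23.8 TPM with isoform 2 and 0.807, 0.539 and 0.513 TPM with isoform 5 (difference -3.77 ± 0.191). The other members of the lowest 12 rows were MYO15B, an unconventional myosin gene (87.2 against 2.66 TPM), CYP17A1, a steroid hydroxylase and lyase (18.7 against 0.238 TPM), HKDC1, a hexokinase (17 against 0.203 TPM), and the pseudogene AQP7P3 (41.8 against 0.412 TPM), given as means of isoform 2 and isoform 5. Reads of AQP7P3 may be shared with its functional relatives, so its value is uncertain.

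The sequence that HNF4 proteins bind as a homodimer is known to contain a core such as CAAAGTCCA, and 3 such cores (CAAAGTCCA, CAAAGTTCA and CAAAGGTCA) were searched on both strands of the 250 bases before each annotated start. In the RefSeq promoter table (GRCh38.p14) 320 of 35116 promoters of all genes held a match (0.911%), as did 106 of 15051 promoters of tested rows (0.704%). Among promoters of rows called lower the count was 13 of 293 (4.44%), and among those called higher it was 3 of 321 (0.935%). Of the 13, those of CYTOR and MIR4435-2HG hold the match in the same stretch of letters, so they are not separate results. A gene can have several promoters in the table, and 205 of the 303 lower and 193 of the 301 higher rows had any. Among the 23 rows named as highest or lowest, VIL1, C11orf86, AQP7P3, HBE1, OR51B5, OR51B4, TMEM132D-AS1, RERG and CLMP had no promoter there and were not searched. Of the others, APOBEC1 and SDCBP2 had a match, SDCBP2 at only 1 of its listed starts. They are shown with CIDEB and with GPR35, a G-protein-coupled receptor of the gut, which was chosen after its match was seen, because all 4 hold the core CAAAGTCCA close to a start in genes that were high with isoform 2 and low with isoform 5 and in parental cells. Capitals mark the match, each sequence is written 5′ to 3′ on the gene's strand and ends at the base before the start, and TGGACTTTG is the same core on the opposite strand.
APOBEC1 (chr12:7665909-7666158, minus strand): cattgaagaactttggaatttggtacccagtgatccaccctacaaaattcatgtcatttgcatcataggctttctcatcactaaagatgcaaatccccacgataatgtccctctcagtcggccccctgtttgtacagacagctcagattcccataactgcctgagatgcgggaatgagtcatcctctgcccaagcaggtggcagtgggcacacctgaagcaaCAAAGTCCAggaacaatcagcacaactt
SDCBP2 (chr20:1313674-1313923, minus strand): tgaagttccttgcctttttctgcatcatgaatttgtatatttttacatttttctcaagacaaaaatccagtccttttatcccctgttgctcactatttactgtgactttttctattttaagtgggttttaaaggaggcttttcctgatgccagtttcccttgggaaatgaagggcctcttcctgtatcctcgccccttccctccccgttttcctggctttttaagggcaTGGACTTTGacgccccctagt
CIDEB (chr14:24307978-24308227, minus strand): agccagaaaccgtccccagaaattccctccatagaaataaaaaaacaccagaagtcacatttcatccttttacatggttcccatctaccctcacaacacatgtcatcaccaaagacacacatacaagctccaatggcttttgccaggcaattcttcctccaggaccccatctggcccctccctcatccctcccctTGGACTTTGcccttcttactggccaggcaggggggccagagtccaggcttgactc
GPR35 (chr2:240605180-240605429, plus strand): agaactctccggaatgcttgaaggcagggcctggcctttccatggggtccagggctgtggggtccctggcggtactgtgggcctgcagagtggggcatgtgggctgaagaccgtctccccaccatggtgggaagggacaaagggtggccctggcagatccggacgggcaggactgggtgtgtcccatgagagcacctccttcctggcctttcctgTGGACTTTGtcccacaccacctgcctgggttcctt
The match began 28 bases before the start in APOBEC1, 21 in SDCBP2, 55 in CIDEB and 35 in GPR35, and in the last 3 it lay on the opposite strand. GPR35 was at 18.03, 21.05 and 20.2 TPM with isoform 2 and at 1.145, 1.099 and 1.16 TPM with isoform 5 (difference -3.28 ± 0.148), the latter below its parental range of 1.247 to 1.494 TPM. A match describes letters in a window and was not measured as binding.

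Higher calls were led by DHRS2, a mitochondrial and nuclear short-chain dehydrogenase/reductase. It stood at 201, 191 and 206 TPM in the isoform 5 line, at 4.97, 3.27 and 3.22 TPM in the isoform 2 line and at 83.9, 99.3 and 106 TPM in parental cells. The isoform 5 libraries were above parental ones and the isoform 2 libraries far below them, a 52.2-fold gap between the lines (difference 5.4 ± 0.407; limma adjusted p = 2.08e-12). This standard error pools the spread of all 13 groups, of which the isoform 3 line, at 55.4, 5.42 and 5.21 TPM of DHRS2, was uneven.

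CAVIN2 encodes a coat protein of caveolae. It had 12.5, 12.8 and 15.1 TPM with isoform 5, 0.476, 0.391 and 0.483 TPM with isoform 2 and 9.66, 8.7 and 10.8 TPM in parental cells (difference 3.32 ± 0.17). CLMP, an adhesion molecule of epithelial junctions, had 23.8, 26.5 and 24.8 TPM with isoform 5, 3.48, 3.45 and 2.58 TPM with isoform 2 and 13.5, 15.5 and 14.2 TPM in parental cells (difference 2.65 ± 0.102). H19, an imprinted long non-coding RNA, had 23.4, 19.7 and 17.9 TPM with isoform 5, 2.34, 2.12 and 1.6 TPM with isoform 2 and 11.7, 10.8 and 10.9 TPM in parental cells (difference 2.82 ± 0.147). In each of these the parental level lay between the 2 lines and nearer to isoform 5.

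RERG, a Ras-like growth inhibitor, was high in the isoform 5 line against both other groups. It had 7.67, 7.44 and 7.79 TPM with isoform 5, 0.987, 1.13 and 1.19 TPM in parental cells and 0.056, 0.018 and 0.019 TPM with isoform 2 (difference 3.07 ± 0.098). ADGRF1, an adhesion G-protein-coupled receptor, and ARHGDIB were highest in parental cells. ADGRF1 had mean TPM of 32.9 in parental cells, 22.5 with isoform 5 and 3.13 with isoform 2, and ARHGDIB had 22.9, 19.5 and 2.68.

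HBE1, which encodes the embryonic epsilon globin, had 26.1, 26.7 and 27.2 TPM with isoform 5, 0.959, 1.66 and 0.978 TPM with isoform 2 and 5.31, 8.92 and 8.81 TPM in parental cells (difference 3.67 ± 0.183). The neighbouring olfactory receptor genes OR51B5 and OR51B4 differed by 3.18 ± 0.16 and 2.82 ± 0.151. In GENCODE v29 (GRCh38.p12) HBE1 spans chr11:5268345-5505652 and overlaps both on the same strand, so reads of the 3 genes may be shared and they are not 3 separate results. TMEM132D-AS1, an antisense RNA that overlaps TMEM132D, had 11.8, 10.3 and 13.9 TPM with isoform 5 and 0.135, 0.26 and 0.293 TPM with isoform 2 (difference 3.4 ± 0.323). Whether strand was used in counting is not given in the sources used here.

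**Figure D1:**
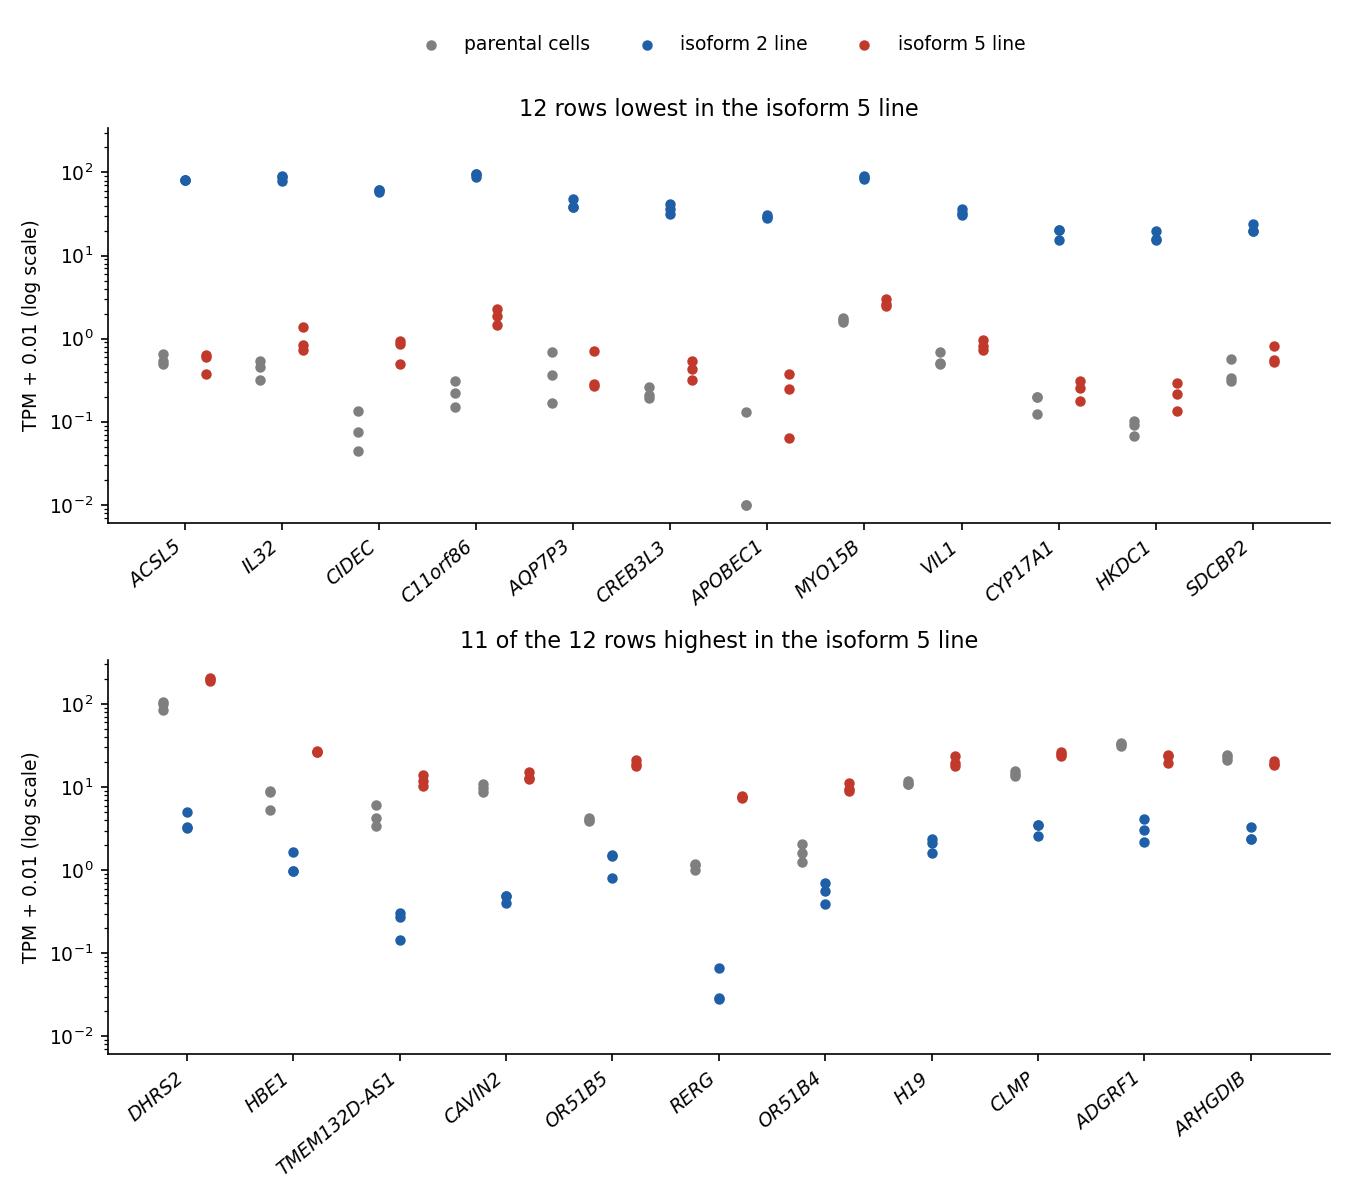
TPM per library, plus 0.01, on a log axis for the 12 rows with the largest negative difference and 11 of the 12 with the largest positive difference. Each point is 1 library of the parental cells (grey), the isoform 2 line (blue) or the isoform 5 line (red). Blue and red points do not overlap in any of these 23 rows, which were picked for the size of their difference.

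The parental mean on the log2(TPM + 1) scale was nearer to isoform 5 than to isoform 2 in 273 of the 301 higher rows (90.7%) and in 292 of the 303 lower rows (96.4%), against 74.3% of all 15002 tested rows. In 238 of the higher and 125 of the lower rows the parental mean lay between the lines. It was below both lines in 174 of the lower rows, and above both in 63 of the higher rows. IL32, CIDEC, C11orf86, APOBEC1 and HKDC1 are among the former, with means of 0.424, 0.0745, 0.217, 0.0403 and 0.0773 TPM in parental cells.

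**Figure D2:**
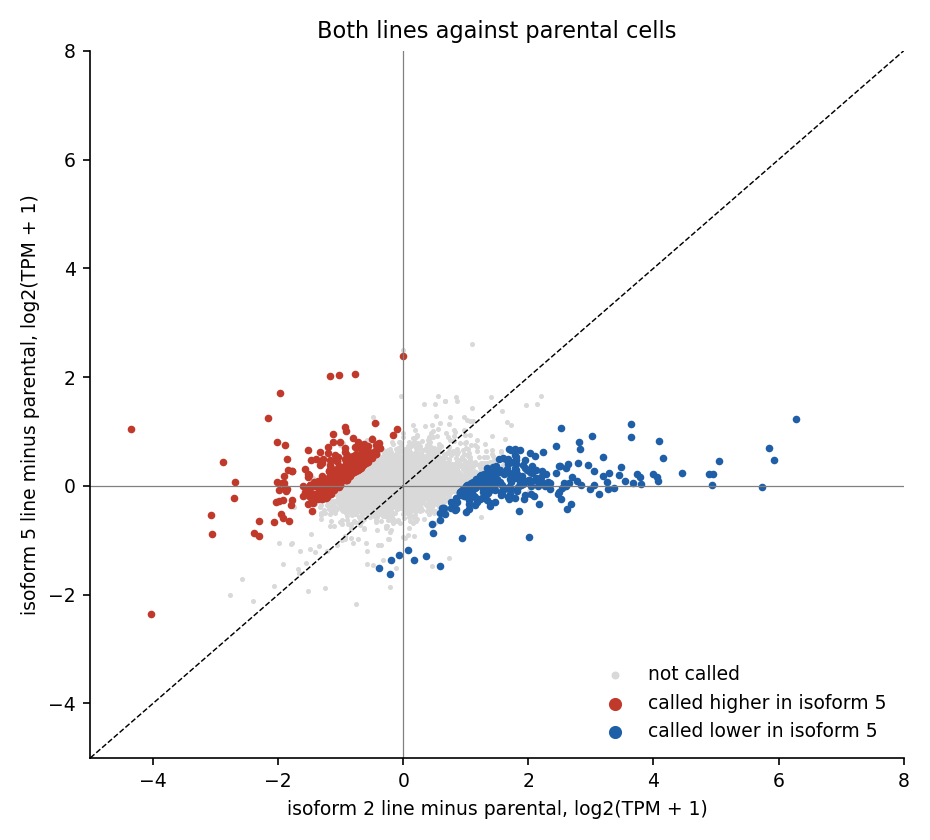
Difference from parental cells in log2(TPM + 1) for the isoform 2 line (horizontal) and the isoform 5 line (vertical), 1 point per tested row, both measured against the same 3 parental libraries. Rows called lower with isoform 5 (blue) spread along the horizontal axis to above 6, while their vertical values stay between -2 and 2. On the horizontal axis ACSL5 is at 5.73, CIDEC at 5.85 and C11orf86 at 6.28.

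Genes were also read in lists by function. Beside the counts below, 2.01% of all tested rows were called higher and 2.02% lower. Known HNF4A targets of liver and gut had 5 of 21 members tested, since the others were below 1 TPM on average, and 4 of the 5 were called lower and none higher. The median of the 5 was -1.72, against 0.10 over all tested rows, and over all 21 members it was -0.00. The filter on mean TPM includes the isoform 2 line, so in any list a low gene can be tested because it was high there. APOA1 had means of 5.54 and 3.74 TPM with isoforms 1 and 2 and at most 0.794 TPM in any other group. The count and the median of the 5 thus partly restate the filter. LGALS4, a galectin of the intestinal epithelium, had 8.97, 12.8 and 12.8 TPM with isoform 2 and 0.417, 0.265 and 0.231 TPM with isoform 5 (difference -3.25 ± 0.169). APOA1, the main protein of high-density lipoprotein, had 3.46, 3.98 and 3.79 TPM against 0.455, 0.454 and 0.396 TPM (difference -1.72 ± 0.123). F10, coagulation factor X, was at 24.6, 30.5 and 30.3 TPM with isoform 2, at 10.5, 10.1 and 8.54 TPM with isoform 5 and at 9.59, 8.6 and 9.58 TPM in parental cells (difference -1.46 ± 0.143). MTTP, which loads lipid onto lipoproteins, was the tested member not called, at 0.38.

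The brush border and enterocyte list had 3 of its 9 tested members called lower and none higher, with a median of -0.54. Besides VIL1 these were ANPEP, the aminopeptidase N of the brush border, and SLC9A3R1, a scaffold protein that anchors membrane transporters. ANPEP had 5.59, 7.47 and 5.85 TPM with isoform 2 and 0.244, 0.209 and 0.138 TPM with isoform 5 (difference -2.6 ± 0.103). SLC9A3R1, far more abundant, had 308, 332 and 320 TPM against 95.4, 97.7 and 96.6 TPM, with 86.1 to 89.5 TPM in parental cells (difference -1.72 ± 0.081). None of the 24 tested genes of epithelial junctions was called, with a median of -0.23. The widest of them, the desmosomal plakophilin PKP2, was at -0.97 ± 0.093 (adjusted p = 3.05e-10), just inside the minimum of 1, and it was called after median-of-ratios scaling (-1.07).

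The list of lipid droplet proteins and fatty acid activation had 3 of 17 tested members called lower, ACSL5, CIDEC and CIDEB, and none higher, and its median was -0.01. The related synthetases ACSL1, ACSL3 and ACSL4 differed by 0.52, 0.04 and -0.04, and the droplet coat proteins PLIN2 and PLIN3 by -0.02 and -0.67, none of them called. Mitochondrial and peroxisomal fatty acid oxidation had 4 of 22 tested members called lower and none higher, with a median of -0.37. ACAA2, a mitochondrial thiolase, was at 150, 164 and 167 TPM with isoform 2 and at 62.3, 62.5 and 60.1 TPM with isoform 5, against 55.2 to 56.6 TPM in parental cells (difference -1.36 ± 0.063). SLC25A20, the carnitine-acylcarnitine carrier, differed by -1.28 ± 0.076, HADHB, a subunit of the trifunctional protein, by -1.15 ± 0.072, and ACAA1, the peroxisomal thiolase, by -1.13 ± 0.049. No cholesterol synthesis gene of 23 tested was called, although 20 of them had negative differences and the median was -0.39. MSMO1, a sterol methyl oxidase, had the widest at -0.87 ± 0.126 (adjusted p = 9.57e-07).

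Genes of drug and steroid metabolism had 4 of 14 tested members called lower and 1 called higher, DHRS2, with a median of -0.42. The lower members include ABCG2, a drug efflux pump, at 12.8, 11.9 and 12.7 TPM with isoform 2 and 2.12, 1.97 and 2.01 TPM with isoform 5 (difference -2.15 ± 0.109), level with the parental 1.85 to 2.19 TPM. SULT2B1, a sulfotransferase of cholesterol and steroids, had 49.4, 54.6 and 51 TPM against 12.8, 11 and 10.4 TPM, and parental cells had 5 to 6.22 TPM (difference -2.09 ± 0.15). CYP1A1, a cytochrome P450 of xenobiotic metabolism, differed by -1.39 ± 0.151.

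Among 24 tested transcription factors of gut and liver, 3 were called lower and 2 higher, with a median of 0.08. With CREB3L3 the lower ones were NR1I3, the constitutive androstane receptor, and KLF4, a factor of differentiating gut epithelium. NR1I3 had 12, 12.2 and 13.1 TPM with isoform 2 and 1.06, 0.985 and 0.654 TPM with isoform 5 (difference -2.83 ± 0.165), which overlapped the parental 0.737 to 1.01 TPM. KLF4 had means of 36.6 and 14.7 TPM (difference -1.27 ± 0.068). NR5A2, the liver receptor homolog LRH-1, went the other way, at 27, 28.9 and 28.9 TPM with isoform 2 and 67.7, 71.3 and 67 TPM with isoform 5 against 50.8 to 52.7 TPM in parental cells (difference 1.25 ± 0.069).

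Wnt targets had 3 of 13 tested members called higher and none lower, with a median of 0.38. NOTUM, a secreted Wnt inhibitor, had 28.1, 22.6 and 21.4 TPM with isoform 5 and 8.4, 9.31 and 8.41 TPM with isoform 2, with 15.9 to 16.2 TPM in parental cells (difference 1.36 ± 0.094). EPHB2, a receptor tyrosine kinase of crypt cells, differed by 1.32 ± 0.078 and TNFRSF19, a receptor of the tumour necrosis factor family, by 1.1 ± 0.091. The interferon response list had 4 of 25 tested members called higher and none lower, with a median of 0.23. Of the 25, 8 had negative differences, against 5440 of all 15002 tested rows. The summed TPM of the list was alike in the lines, at 814 to 855 with isoform 5 and 812 to 878 with isoform 2. UBE2L6, the conjugating enzyme for ISG15, had 38.5, 37 and 37 TPM with isoform 5 and 12, 14.7 and 13.6 TPM with isoform 2, and 35.5 to 35.8 TPM in parental cells (difference 1.42 ± 0.093). IFITM1, which may share reads with its close relatives, and IFI6 also differed by 1.42, and OAS3, an antiviral oligoadenylate synthetase, by 1.33 ± 0.092. ISG15 itself, a ubiquitin-like modifier, lay on the opposite side at -0.89, not called. The relatives of OAS3 that were tested, OAS1 and OASL, were at -0.46 and -0.01, not called either.

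The mesenchymal and matricellular list had members on both sides, 4 of 17 tested called higher and 3 lower, with a median of -0.24. CAVIN2, SPARC, THBS1 and LOXL2 were higher with isoform 5. SPARC, a secreted matrix protein, had 2.61, 2.52 and 2.48 TPM with isoform 5, 0.149, 0.0765 and 0.0903 TPM with isoform 2 and 15 to 20.4 TPM in parental cells, above both lines (difference 1.68 ± 0.338). THBS1, thrombospondin 1, had 9.15, 9.93 and 7.01 TPM with isoform 5, which overlapped the parental 8.46 to 9.33 TPM, and 2.41, 2.7 and 2.47 TPM with isoform 2 (difference 1.45 ± 0.105). The lower members were S100A4, a calcium-binding protein of motile cells, and the caveolins CAV1 and CAV2, at -1.18 and -1.25. S100A4 had 280, 326 and 333 TPM with isoform 2 and 131, 103 and 100 TPM with isoform 5, and its parental range of 121 to 141 TPM overlapped the latter (difference -1.49 ± 0.103).

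Of 10 tested EGF family ligands and ERBB receptors, AREG and EREG, ligands of the EGF receptor that lie near each other on chromosome 4, were called lower and none higher (median -0.26). AREG had 54.2, 53.3 and 50.5 TPM with isoform 2 and 21.7, 20.7 and 16.7 TPM with isoform 5 (difference -1.38 ± 0.098), and EREG had means of 14.7 and 6.03 TPM (difference -1.16 ± 0.1). With the line labelled isoform 4 in place of isoform 5, EREG was on the other side, at 0.45, and AREG at -0.63 was not called. IL32 was the only called member among 12 tested genes of the NF-kB and chemokine list (median 0.29), CDKN1A the only one among 22 tested p53 targets (median 0.28), and PHGDH the only one among 19 tested ATF4 and serine synthesis genes (median 0.03). CDKN1A, the cell cycle inhibitor p21, was lower with isoform 5, at 125, 137 and 123 TPM against 260, 296 and 271 TPM, with 100 to 106 TPM in parental cells (difference -1.09 ± 0.085). PHGDH, the first enzyme of serine synthesis, was higher, at 82.7, 84.3 and 79.9 TPM against 35.1, 43.3 and 37 TPM (difference 1.08 ± 0.085), and fell just short of the minimum after median-of-ratios scaling (0.98).

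No tested gene of the lists of DNA replication and S phase and of mitosis was called. The 22 tested genes of DNA replication and S phase had a median of 0.46 and 21 positive differences, with E2F1, a transcription factor of S-phase entry, widest at 0.71 ± 0.116 (adjusted p = 6.25e-06). The 22 mitotic genes had a median of 0.30 and 21 positive differences, with the kinetochore gene CENPF widest at 0.59 ± 0.108 (adjusted p = 3.3e-05). Over all tested rows 63.7% of differences were positive.

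Of 7 markers of HCT116 as an epithelial line, 5 reached 1 TPM on average. The keratin KRT18 had 603, 605 and 598 TPM with isoform 5, 1110, 1090 and 1200 TPM with isoform 2 and 790 to 855 TPM in parental cells (difference -0.91 ± 0.054), called only after scaling or without a minimum fold. The 5 tested members of that list had a median of -0.62 and none was called. Of markers of other cell types, 3 of 9 blood genes, 2 of 8 fibroblast genes, 1 of 6 endothelial genes and 1 of 8 hepatocyte genes reached 1 TPM on average. PECAM1, the endothelial one, was called lower (1.49 against 4.13 TPM), and that call was lost without 1 isoform 5 library (-0.97). HBA1, which has a near-identical copy, and ACTA2, at 0.41 and 0.68, and the hepatocyte enzyme gene CPS1, at 0.90, were the widest of the other lists and were not called. The part of these genes in the results above was not tested.

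**Figure D3:**
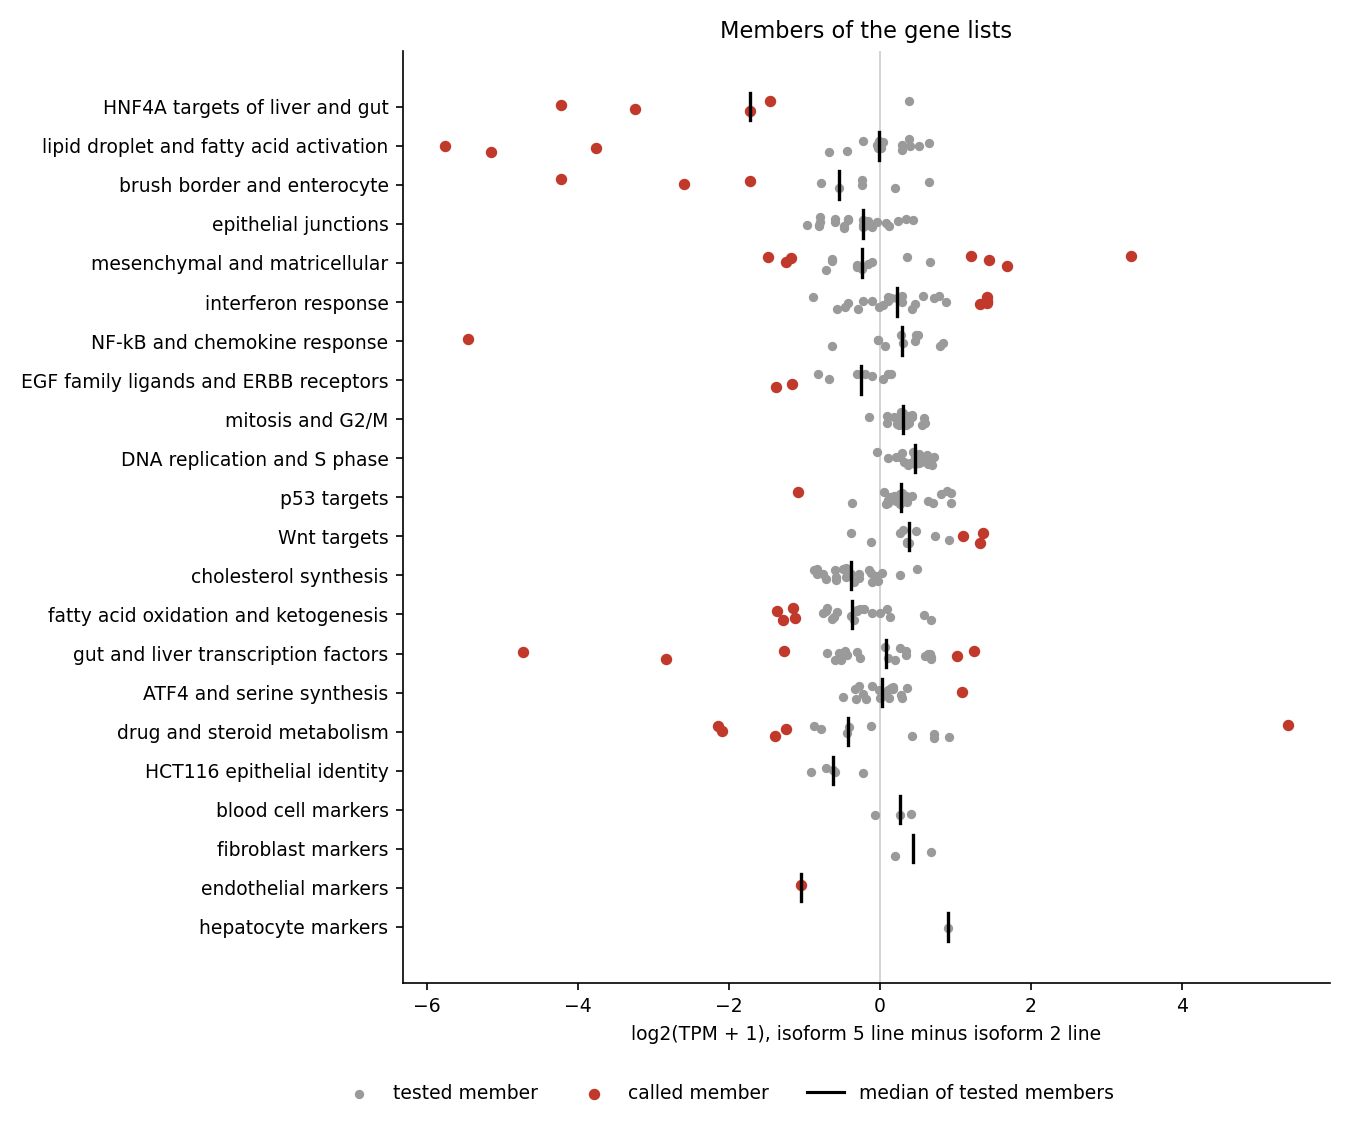
Difference in log2(TPM + 1), isoform 5 line minus isoform 2 line, for every tested member of the 22 lists, with called members in red and the median of each list as a black bar. Called members lie on the left in the lists of HNF4A targets, lipid droplets, the brush border and fatty acid oxidation and on the right in those of interferon response and Wnt targets, and the S phase and mitosis genes sit in narrow bands right of 0.

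The same exon was compared on the other C-terminal forms, with lines that share no library with isoforms 5 and 2. Summed HNF4A mRNA had means of 856 TPM with isoform 4 and 782 TPM with isoform 1. It had means of 1070 TPM with isoform 6 and 671 TPM with isoform 3. The line with exon 1B was thus higher in these pairs too, and the part of these gaps in the overlaps below was not tested. Between isoforms 4 and 1, 674 rows were called (4.49%), 260 higher (1.73%) and 414 lower (2.76%), and between isoforms 6 and 3, 105 rows (0.7%), 13 higher (0.0867%) and 92 lower (0.613%). Of the 303 rows lower with isoform 5, 252 were also lower with isoform 4 than with isoform 1, which is 83.2% of the former and 60.9% of the latter list. For the higher rows the overlap was 142, or 47.2% of the isoform 5 list and 54.6% of the isoform 4 list. With isoforms 6 and 3 the overlap was 82 lower rows (27.1% and 89.1% of the lists) and 9 higher rows (2.99% and 69.2%).

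In all 3 comparisons 81 rows were called lower and 5 higher. The 5 whose smallest difference was widest included CIDEC, at -5.15, -4.21 and -3.77 for the pairs 5 and 2, 4 and 1, and 6 and 3, IL32 at -5.46, -5.72 and -3.74, and MYO15B at -4.59, -4.66 and -3.73. The others were C11orf86 at -5.05, -4.36 and -3.57 and ACSL5 at -5.76, -6.04 and -3.22. The isoform 3 line holds a library with 407 TPM of HNF4A against 833 and 772 TPM in its others. Without it, 26 rows were higher and 121 lower between isoforms 6 and 3, and 10 higher and 101 lower rows were shared by all 3 comparisons.

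The difference of differences was then tested in the same fit. Between the pairs 5 and 2 and 4 and 1 it was called in 130 rows (0.867%), of which 104 were more positive (0.693%) and 26 more negative (0.173%) for the pair 5 and 2. Of the rows called in the 5 and 2 comparison, 44 higher and 14 lower ones were among these. Against the pair 6 and 3 it was called in 223 rows (1.49%), 108 more positive (0.72%) and 115 more negative (0.767%), with 92 of the higher and 103 of the lower rows among them, and 71 and 94 without the isoform 3 library of low HNF4A.

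RERG departed most from the pair 4 and 1. It was 7.63 TPM with isoform 5 against 0.031 TPM with isoform 2, and 0.199, 0.154 and 0.208 TPM with isoform 4 against 1.37, 1.65 and 1.34 TPM with isoform 1. The sign was thus opposite in the pairs (3.07 and -1.04), a difference of 4.11 called by limma. KRTAP3-1, a hair keratin-associated protein gene, showed the same opposition, 2.16 against -1.56. It had 5.11, 5.18 and 5.01 TPM with isoform 5 and 0.476, 0.23 and 0.402 TPM with isoform 2, but 3.04, 2.87 and 4.76 TPM with isoform 4 and 11, 15 and 11 TPM with isoform 1. TMEM132D-AS1 (3.4 against -0.44), CAVIN2 (3.32 against 0.32) and CLMP (2.65 against -0.11) were higher with isoform 5 and not called between isoforms 4 and 1, and the difference was called in each. In the lines of isoforms 7 to 12, group means ran from 0.0134 to 7.37 TPM for RERG and from 0.228 to 15.7 TPM for TMEM132D-AS1. They ran from 0.91 to 5.61 TPM for CAVIN2, from 6.47 to 15 TPM for CLMP and from 2.15 to 5.63 TPM for KRTAP3-1. The pairs set single lines against each other, so line and isoform cannot be told apart.

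DHRS2, HBE1 and OR51B5 departed most from the pair 6 and 3. DHRS2 differed by 5.4 between isoforms 5 and 2, by 3.1 between 4 and 1 and by -0.25 between 6 and 3. Isoform 4 had 51.9, 43.4 and 51.8 TPM of DHRS2, isoform 1 had 5.85, 4.53 and 4.15 TPM and isoform 6 had 9.66, 10.2 and 10.1 TPM. Leaving out the uneven isoform 3 library turned the 6 and 3 difference to 0.8 and the difference of differences from 5.65 to 4.6, which was still called. HBE1 was at 3.67, 3.86 and -0.93 and OR51B5 at 3.18, 3.55 and -0.58 in the 3 pairs. The difference was more negative for the pair 5 and 2 than for the pair 6 and 3 in CREB3L3 (-2.65), CYP17A1 (-2.64), ACSL5 (-2.54) and ANPEP (-2.33). ACSL5 was low with isoform 6, at 0.23, 0.27 and 0.271 TPM, and was at 7.37, 13 and 12.7 TPM with isoform 3, below the level with isoform 2. ANPEP likewise had 0.0374, 0.106 and 0.0624 TPM with isoform 6 and 0.257, 0.348 and 0.267 TPM with isoform 3, against 5.59, 7.47 and 5.85 TPM with isoform 2.

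**Figure D4:**
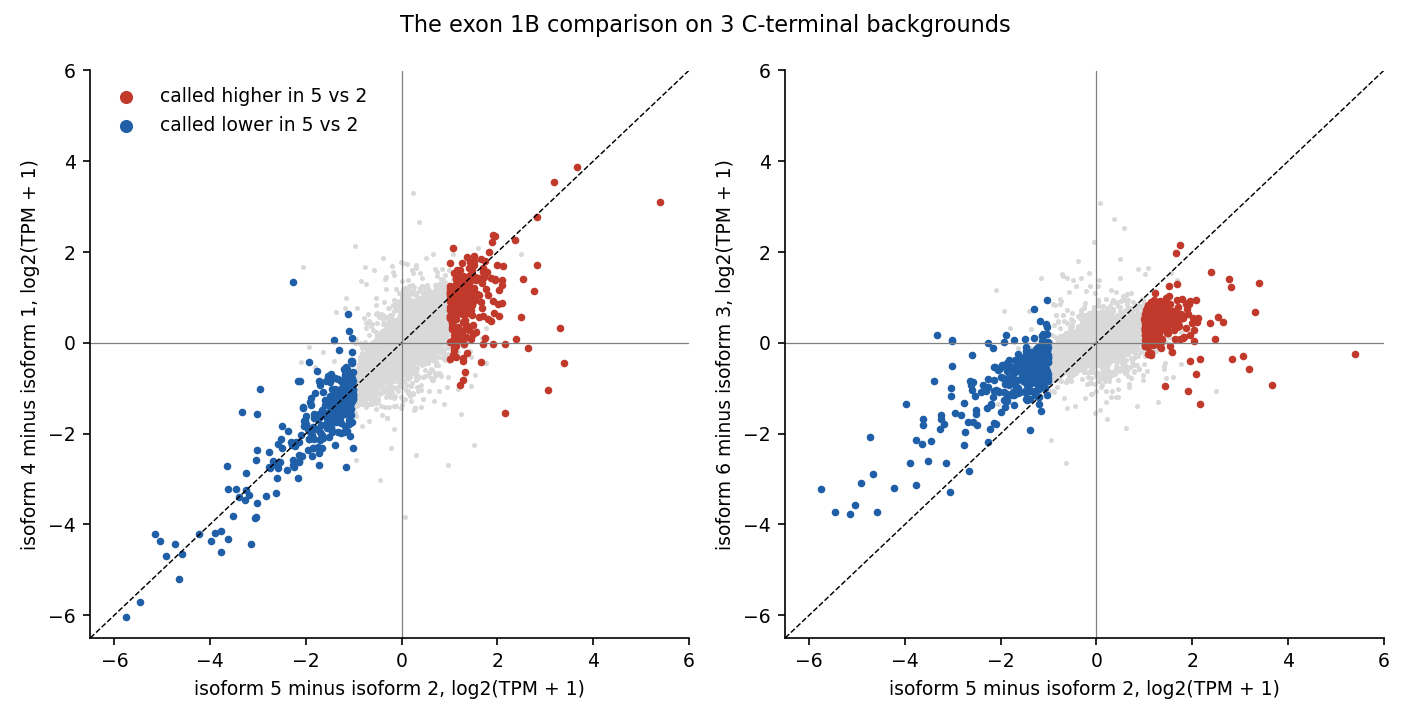
Difference in log2(TPM + 1) between isoforms 5 and 2 (horizontal) against that between isoforms 4 and 1 (left, vertical) and between isoforms 6 and 3 (right, vertical), 1 point per tested row, with a dashed line of equal differences. Rows called lower with isoform 5 (blue) follow the line on the left down to ACSL5 at -5.76 and -6.04. On the right their vertical median is -0.64, against a horizontal median of -1.41, and ACSL5 is at -3.22. Some lie below the line there, among them AREG at -1.38 and -1.91.

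With the line labelled isoform 4 set against isoform 2 in place of isoform 5, 542 rows were called, 211 higher and 331 lower. Among the 23 highest and lowest rows named here, TMEM132D-AS1 at 0.5, CAVIN2 at 0.79 and RERG at 0.2 were then not called, and the 12 lowest rows were all still called lower. Of the other named genes, SPARC at 0.82, THBS1 at 0.76, TNFRSF19 at 0.86, NOTUM at 0.43, S100A4 at -0.97, PECAM1 at -0.76, AREG and EREG were not called either.

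Some of the called rows were neighbours. Runs of at least 3 adjacent tested genes called the same way were found at several places. Among them were SYT8, TNNI2 and LSP1 and the overlapping HBE1, OR51B4 and OR51B5 on chromosome 11 and ERP27, ARHGDIB and RERG on chromosome 12, all higher, and TRIM31-AS1, TRIM10 and TRIM15 on chromosome 6, lower.

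A wider shift of small size covered the end of the long arm of chromosome 11. From position 93729948 to 134378341 (GRCh38.p12, bounds set after the data were seen), 161 genes were tested. Of them 136 had a positive difference, with a median of 0.34. Over all tested rows 63.7% of differences were positive, with a median of 0.098. The median of the 161 genes against parental cells was 0.202 in the isoform 5 line and -0.155 in the isoform 2 line. Against parental cells the median of these genes, relative to all other genes, was 0.173, 0.191 and 0.2 in the libraries of the isoform 5 line, and 151 of 161 were above parental (93.8%, against 53.2% of other genes). The isoform 2 line had -0.063, -0.092 and -0.046. In the other 10 lines the same median lay between -0.031 and 0.004, and the rest of chromosome 11 was at 0.007 in the isoform 5 line. The level of the isoform 5 line there corresponds to 1.14-fold of parental cells. Of the 604 called rows, 5 higher ones (NECTIN1, SORL1, CLMP, NRGN and GLB1L2) and the lower APOA1 lie in this stretch. The part of the shift in these 6 results was not tested.

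**Figure D5:**
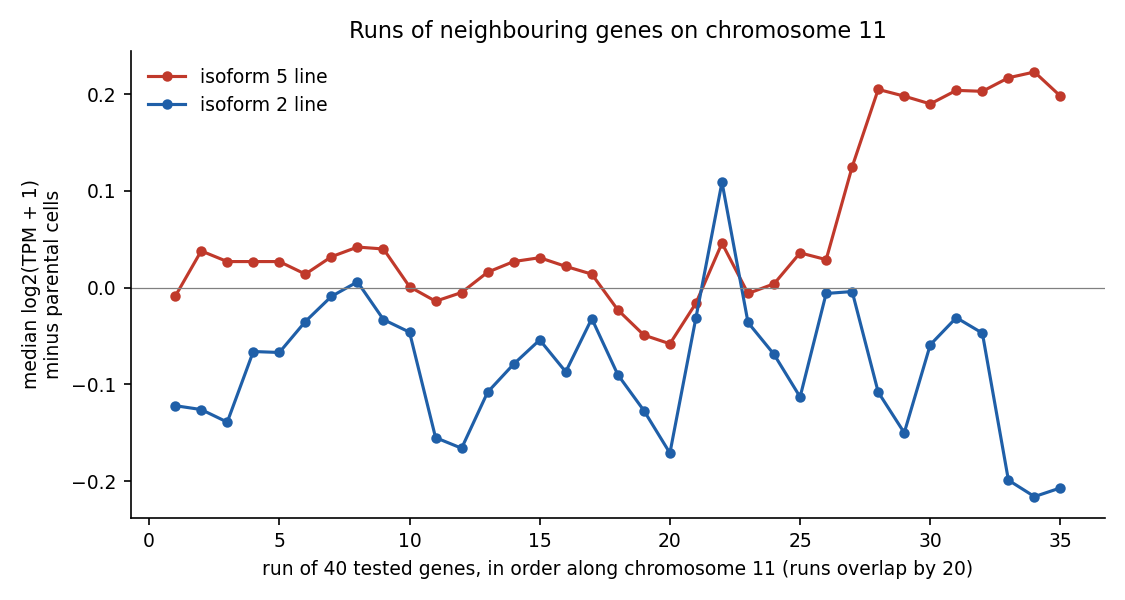
Median difference from parental cells in log2(TPM + 1) for runs of 40 neighbouring tested genes in order along chromosome 11, in the isoform 5 line (red) and the isoform 2 line (blue). The last 8 runs of the isoform 5 line lie between 0.19 and 0.223, above all its other runs on this chromosome. The isoform 2 line has no such rise. Relative to other genes, its median in the stretch at the end of the long arm was -0.073, against 0.008 for the rest of the chromosome.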

How the data were processed

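Poly(A) RNA was sequenced from directional libraries, per the labels' protocols. The authors deposited 13 tables of TPM, 1 per group, each with 45446 rows in the same order. The submitters' processing notes name Trimmomatic 0.36, FastQC 0.11.5, kallisto 0.44.0, DESeq2 1.22.2 and GRCh38.p12. TPM columns sum to a fixed total, so read depth is unknown and no counting interval was computed. Here the 12 HNF4A rows were summed and left out, rows were matched by position, and log2(TPM + 1) was fitted with limma 3.58.1 in R 4.3.3 (mean-variance trend). All 39 libraries in 13 groups entered, with 26 residual degrees of freedom. All libraries of a group differed from each other. The titles of isoforms 4 and 5 repeat 1 library name within each group, so their table columns were tied to a group and not to a numbered replicate. In all, 30069 rows matched GENCODE v29. Simulated data for isoform 5 against isoform 2 over 15002 rows had normal noise and changes only in abundant rows. There 50 of 50 changes of 1.5 and 0 of 50 of 0.5 were called, with 1 false call. A change of 0.5 lies below the minimum of 1, so this checks the code and not the power at low TPM. Named genes are the 12 lowest and 11 of the 12 highest rows (the other is not reported here), up to 4 called members per list (or its widest member), the 3 rows departing most from each other pair, and the 5 shared by all pairs. The members and lists were chosen with earlier results of these data known.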

Additional observations from a re-analysis of the deposited data

Results flagged for a closer look

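The difference between the lines of a pair was compared across pairs. It differed past the threshold in 130 genes between the pairs 5 and 2 and 4 and 1. Between the pairs 5 and 2 and 6 and 3 it did so in 223 genes. Each isoform is 1 line, so variation between lines and a dependence on the C-terminal form cannot be told apart. The values below are differences of log2(TPM + 1) differences, the pair 5 and 2 minus the other pair, for named genes that passed (limma adjusted p under 0.05, absolute value of at least 1), and no cause was tested.

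Against the pair 4 and 1, the genes more positive for the pair 5 and 2 were RERG (4.11), TMEM132D-AS1 (3.83), KRTAP3-1 (3.72), CAVIN2 (3.0), CLMP (2.76), DHRS2 (2.29) and ARHGDIB (1.92). THBS1 (1.36), ADGRF1 (1.12), H19 (1.11) and OAS3 (1.03) followed. None of the named genes was more negative against this pair.

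Against the pair 6 and 3, DHRS2 (5.65), HBE1 (4.6), OR51B5 (3.76), RERG (3.36), OR51B4 (3.17), CAVIN2 (2.64), KRTAP3-1 (2.52) and ARHGDIB (2.41) were more positive. So were CLMP (2.19), TMEM132D-AS1 (2.07), ADGRF1 (1.95), H19 (1.58), OAS3 (1.4) and TNFRSF19 (1.12). Genes more negative for the pair 5 and 2 were CREB3L3 (-2.65), CYP17A1 (-2.64), ACSL5 (-2.54), ANPEP (-2.33), AQP7P3 (-1.83), APOA1 (-1.79), APOBEC1 (-1.77) and IL32 (-1.72). SDCBP2 (-1.63), LGALS4 (-1.57), S100A4 (-1.57), C11orf86 (-1.48), CIDEC (-1.38), NR1I3 (-1.25), HKDC1 (-1.24), ACAA2 (-1.17), VIL1 (-1.02) and KLF4 (-1.01) were also among them. Without the isoform 3 library of low HNF4A, VIL1 at -0.66 and NR1I3 at -0.94 were no longer called.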

How the results depend on the processing

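With a filter of 5 TPM, 365 rows were called between isoforms 5 and 2 (157 higher), and 52 and 117 for the differences from the pairs 4 and 1 and 6 and 3; fewer rows are tested there. A pseudocount of 0.1 TPM gave 536 higher rows, 179 between isoforms 6 and 3, and 217 and 361 for the differences. Without a minimum fold change the counts were 8086 (5369 higher, 2717 lower) for isoforms 5 and 2, 8272 for 4 and 1, 3237 for 6 and 3, and 1818 and 3476 for the differences. Median-of-ratios scaling moved the median of all rows to 0.008 and gave 241 higher and 352 lower rows. The other alternatives kept each count within 1.5 times. Leaving out 1 library gave 597 to 613 rows for isoforms 5 and 2 (299 to 310 higher, 295 to 309 lower), 657 to 708 for 4 and 1, 91 to 147 for 6 and 3, and 111 to 133 and 193 to 250 for the differences. With the line labelled isoform 4 in place of isoform 5, chosen after seeing the data, 11 of the 55 called genes among the 63 named lost their call. EREG (0.45), one of them, and HBA1 (-0.07), which was not called, changed sign. The titles number the isoform 5 libraries but repeat 1 library name, so table columns were not tied to those numbers. With the number in the column name as a replicate block, a fit added after seeing the data to the libraries of both groups alone, 624 rows were called between isoforms 5 and 2 (314 higher, 310 lower) and 684 between 4 and 1, and no named gene lost its call. Deviations of same-numbered libraries correlated at 0.04, 0.115 and 0.082 for isoforms 5 and 2 and at 0.182, 0.072 and 0.117 for 4 and 1. Every library correlated best with its own number, a hint from the data, but not every pair passed the limit of 0.1, so they were not taken as pairs. For isoforms 6 and 3, which share numbers, a fit with a replicate block called 104 rows against 105. Same-numbered libraries there had deviations that correlated at -0.066, 0.038 and 0.031, so the numbers were not taken as pairs. Depth is unknown, and rows under 1 TPM were not tested.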
